A study of Mus musculus with 16 samples.

Results

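Kidney gene expression after an intramuscular injection of glycerol was compared with that after phosphate-buffered saline (PBS) in wild-type (WT) mice. The comparison used 8 of the 16 libraries of the series: WT PBS (4 libraries) and WT glycerol (4 libraries), all from mice aged 8 weeks with a background labelled C56BL/6. The glycerol group received 50% glycerol at 7.5 ml/kg in muscle of the right thigh, and the control group received PBS. RNA was taken from frozen kidney sections of 30 µm, so each library mixed all cell types in the cut. Every gene that reached a normalized count of 10 in 4 or more of the 16 libraries was included, which gave 18035 of 20525 genes. The other 8 libraries came from mice labelled C3-/- and served only to estimate the spread of each gene. Sex and the time between injection and sampling are not given in the labels, nor is it said whether each library came from a different animal. The p-values therefore measure the spread between these libraries, which may be technical.

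Glycerol injected into muscle lyses muscle fibres and releases myoglobin and other heme proteins into the blood, a model of rhabdomyolysis. The proximal tubule takes up filtered proteins through the receptors megalin (Lrp2) and cubilin (Cubn), breaks heme down with heme oxygenase and burns fatty acids to drive transport. Each later segment of the nephron carries its own transporters: the thick ascending limb reabsorbs salt and secretes uromodulin, the distal convoluted tubule fine-tunes salt and magnesium, and the collecting duct handles water and acid. Injured tubule cells are known to lose such segment genes and to switch on injury genes, among them kidney injury molecule 1 (Havcr1), and to send out signals that recruit leukocytes.

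The tissue label was checked against 7 defining genes of kidney segments and podocytes. In the PBS libraries the mean normalized counts were 106261 for Slc34a1 and 56170.2 for Lrp2 (proximal tubule), 146237 for Umod and 64280.5 for Slc12a1 (thick ascending limb), 37609 for Slc12a3 (distal convoluted tubule), 4161 for Aqp2 (collecting duct), and 783 for Nphs1 (podocytes). Cortical and medullary segments and glomeruli were thus all present in the sections. Normalized counts are not divided by gene length, so levels are compared here between libraries and not between genes.

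WT glycerol 4 stood apart from the other 15 libraries. Its smallest step between low values, about the worth of 1 read, was 8.42 normalized counts against 0.43 to 1.2 elsewhere, which corresponds to about 4.6 M reads against 26.1 to 65.4 M. In it 3374 genes were listed at 0, against 190 to 982 in the others. Its sample description also repeats a number carried by another library, as do those of C3-/- glycerol 1 and 3. Its values further differed with gene length: relative to the other 3 WT glycerol libraries, the median log2 difference was 0.52 in the fifth of genes with the shortest exons and -0.62 in the fifth with the longest. The median standard deviation of a gene's log2 value was 0.14 in the PBS group, 0.61 in the glycerol group and 0.23 in the glycerol group without this library. Changes of named genes that move by more than 1.5 times without it are given both ways.

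**Figure D1:**
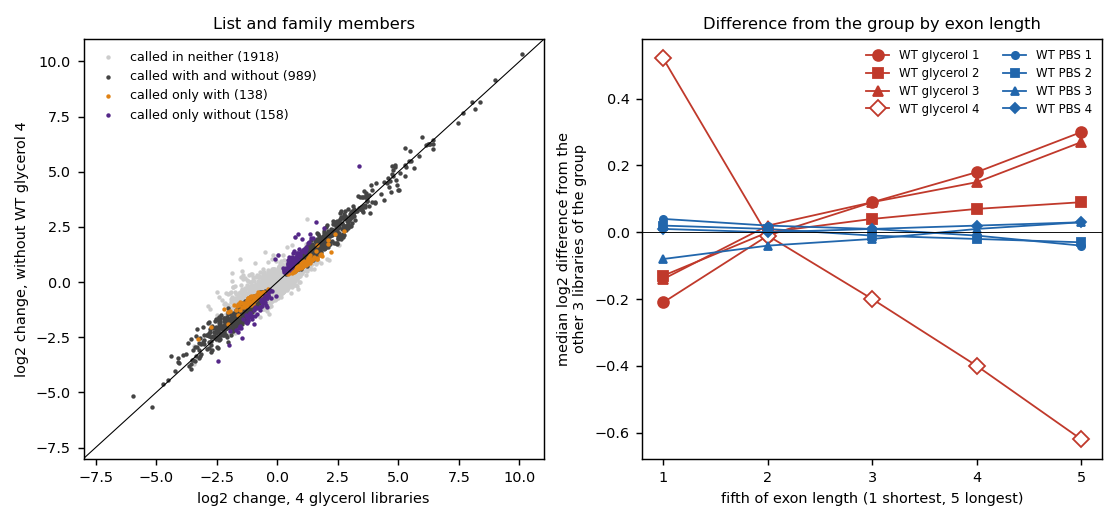
Left, the log2 change of 3203 members of gene lists and families fitted with all 4 WT glycerol libraries (x axis) and without WT glycerol 4 (y axis). Colours show whether a gene was called in both fits, in 1 or in none, and 138 members were called only with this library and 158 only without it. Right, the median log2 difference of each WT library from the other 3 of its group in 5 classes of exon length. The line of WT glycerol 4 falls from 0.52 to -0.62 while the 4 PBS lines stay between -0.08 and 0.04.

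Glycerol moved a large share of the measured transcriptome in both directions. A gene was called when its change had a limma adjusted p below 0.05, where the change is the difference of the group means of log2(normalized count + 1), glycerol minus PBS, with 4 libraries in each group. By this rule 2262 genes (12.5% of those tested) rose and 2404 (13.3%) fell, 25.9% in all. There was no overlap between glycerol and PBS values for 3291 genes that lay above PBS (18.2%) and 4032 that lay below it (22.4%), 40.6% in all. The median change over all tested genes was -0.11. The change exceeded 4-fold in 498 of the genes that rose and in 710 of those that fell, and 16-fold in 93 and 56. The balance of directions depended on the scaling, since 48.5% of calls were rises with the deposited scaling and 59.5% after each library was rescaled to the same total.

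Removing WT glycerol 4 left the counts of calls close to these, with 2358 rises (13.1%) and 2387 falls (13.2%), 26.3% in all. Of the 4666 genes called with it, 3916 were also called without it in the same direction, 750 lost the call and 829 others gained one. Leaving out all 3 libraries with a repeated number gave more calls, 4810 rises (26.7%) and 5218 falls (28.9%), 55.6% in all, and 4647 of the 4666 genes were among them. In that fit 42 of 95 list counts of 3 or more calls grew by more than 1.5 times and 0 shrank. In a list, counts of few calls were the least stable: of 36 list counts of 1 or 2 calls given below, 22 moved by more than 1.5 times when a single WT library was left out, as did 20 of 95 counts of 3 or more. The latter are marked where they occur. The authors' deposited table of this comparison called 5688 of the tested genes, of which 4562 were also called here in the same direction.

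The genes that rose most were led by Havcr1 (ENSMUSG00000040405, GRCm38 chromosome 11, 46735080 to 46779578), the membrane receptor shed by injured proximal tubule cells. Its normalized counts were 21.5, 94.5, 40.2 and 28.0 in PBS libraries 1 to 4 and 57982, 46259, 52729 and 28049.5 in glycerol libraries 1 to 4, the order used for all values below. Every glycerol library was far above every PBS library, and the lowest glycerol value belonged to WT glycerol 4. The log2 change was 10.12 ± 0.57 (SE, limma adjusted p = 1.8e-07). Behind it came Krt20, a keratin of surface epithelia (log2 change 8.97 ± 1.06), Timp1, which inhibits metalloproteinases (8.38 ± 0.73), the AP-1 subunit Fosl1 (8.17 ± 1.24), Gsta1, a glutathione transferase (8.03 ± 0.47), Vgf, a secreted neuropeptide precursor (7.76 ± 0.68), and Lcn2, the iron-carrier protein known as NGAL (7.66 ± 0.65). Ptprn, a protein of secretory granules, rose by 7.27 ± 0.60 and the transcription factor Sox9, seen in tubules under repair, by 6.41 ± 0.43. Sprr2f, an epithelial barrier gene with close copies, had 0, 0.9, 0 and 0 in PBS and 87.1, 608, 50.5 and 170.5 after glycerol (log2 change 6.97 ± 0.86; 6.29 without WT glycerol 2). The acute phase gene Saa1 and the interleukin-1 family cytokine Il1f6 were listed at 0 in all 4 PBS libraries, and in the glycerol libraries Saa1 had 256, 66.9, 184 and 302 and Il1f6 93.6, 214, 119 and 130.2.

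The genes that fell most were led by Egf (ENSMUSG00000028017, GRCm38 chromosome 3, 129677565 to 129755316), the epidermal growth factor precursor made by the thick ascending limb and distal tubule. Egf had 58289, 60979, 56029.7 and 65237 in PBS and 1798, 770.5, 3398 and 180.4 after glycerol, a log2 change of -5.96 ± 0.70 (SE, limma adjusted p = 4.3e-05). The groups did not overlap and WT glycerol 4 was lowest; without it the change was -5.16, and without WT glycerol 3, the highest of the group, -6.57. The next falls were those of Nccrp1 (log2 change -5.82 ± 0.42), of Kcnt1, a sodium-activated potassium channel (-5.18 ± 0.54), of Pde6a, a cyclic GMP phosphodiesterase subunit (-5.00 ± 0.85), of Car3, a carbonic anhydrase (-4.73 ± 0.75), and of Vmn1r18, which has close copies (-4.56 ± 0.59). G6pc, the last enzyme of glucose release, fell as well (-4.51 ± 0.70; -5.17 without WT glycerol 3 and -3.69 without WT glycerol 2). Another 5 of the 12 largest falls were listed at 0 in WT glycerol 4 and shrank without it: Tnn, a matrix protein (log2 change -4.94 with it and -3.99 without it), A4gnt (-4.94 and -3.92), Dnah11, a dynein (-4.86 and -4.22), Fancd2os (-4.51 and -3.70) and Ano3, a membrane protein (-4.42 and -3.36). Without WT glycerol 3 the changes of A4gnt, Fancd2os and Ano3 were -5.93, -5.25 and -5.05.

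**Figure D2:**
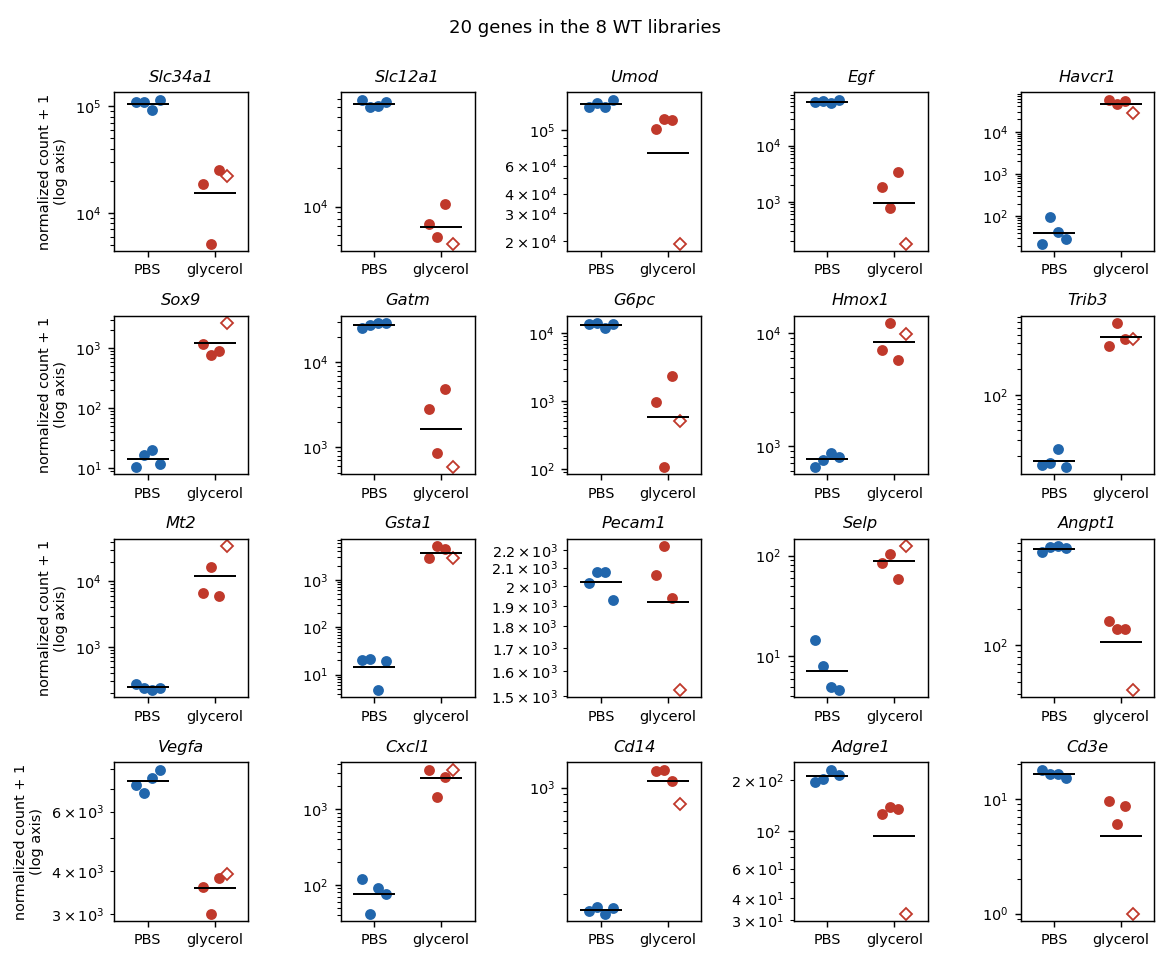
Normalized counts plus 1 (log axis) of 20 genes in the 4 PBS libraries (blue) and 4 glycerol libraries (red) of WT kidney; each point is a library, the bar is the geometric mean and the open diamond is WT glycerol 4. Groups are far apart for Havcr1, Gsta1 and Egf and overlap for Pecam1, and the diamond is the lowest of its group for Umod and Cd3e.

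Transport genes of the proximal tubule fell together. Of 41 tested genes of uptake and transport, 0 rose and 22 fell (53.7%, against 13.3% of all tested genes), with a median log2 change of -1.53 (-0.11 for all tested genes). Slc34a1, the phosphate transporter of the brush border, had 109428, 108627, 91669 and 115322 in PBS and 18518, 5164, 25293 and 22199.7 after glycerol, with the lowest value in WT glycerol 2 and no overlap. Its log2 change was -2.80 ± 0.59 (SE, limma adjusted p = 0.0033). Its relative Slc34a3 fell by more (log2 change -3.17 ± 0.39), and the amino acid transporters Slc6a19 (-2.44 ± 0.33) and Slc7a8 (-2.12 ± 0.21), the lactate transporter Slc5a8 (-2.84 ± 0.56) and the peptide transporter Slc15a2 (-2.18 ± 0.33) fell as well. Lrp2 had 52255, 58301, 53688 and 60437 in PBS and 18986, 5503, 28739.9 and 8132 after glycerol, and Cubn fell with it (log2 changes -2.17 ± 0.42 and -1.86 ± 0.43). Their partners in endocytosis were not called: the change of Amn was -0.30 ± 0.60 (-0.93 without WT glycerol 4) and that of Dab2, a clathrin adaptor, -0.09 ± 0.21. In whole kidney RNA, fewer cells of a type and less RNA per cell cannot be told apart.

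The summed level of the proximal list was 44.1, 17.6, 53.5 and 48.5 percent of the PBS mean in glycerol libraries 1 to 4. WT glycerol 2 was thus much lower than the other 3 for this segment. In the thick ascending limb list the summed level was 41.7, 46.1, 48.2 and 17.4 percent, with WT glycerol 4 lowest. Umod weighed heavily in this sum. It held 102675 of 128489 normalized counts in WT glycerol 1 and 19329 of 53737 in WT glycerol 4. The other genes of the list summed to more in WT glycerol 4 than in WT glycerol 1, so the lowest place of WT glycerol 4 rests on Umod. In WT PBS 1 Umod held less of the sum, 139957 of 305328. The other genes in WT glycerol 1 thus fell further than the summed level. The order of the libraries is not shown for the segment as a whole.

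In the thick ascending limb 10 of 19 genes fell and 0 rose (median -1.07). Slc12a1, the apical salt cotransporter on which loop diuretics act, had 68896, 60859, 61388 and 65979 in PBS and 7339, 5724, 10405 and 5128 after glycerol, a log2 change of -3.22 ± 0.31 (SE, limma adjusted p = 8.1e-06). All 4 glycerol libraries lay far below the lowest PBS value. Tmem207 (log2 change -4.12 ± 0.52; -3.43 without WT glycerol 4), the paracellular pore claudin Cldn10 (-1.92 ± 0.31), the prostaglandin receptor Ptger3 (-1.60 ± 0.35), the potassium channel Kcnj1 (-1.62 ± 0.44, not called after rescaling to the same total) and the chloride channel subunit Bsnd (-1.07 ± 0.26) fell too. Umod behaved otherwise: it had 139957, 148853, 139745 and 156395 in PBS and 102675, 118713, 115901 and 19329 after glycerol. Glycerol libraries 1 to 3 were slightly below PBS and WT glycerol 4 was far below. The change of -1.01 ± 0.53 (SE, limma adjusted p = 0.18) was not called, and without that library it was -0.38 (adjusted p = 0.52). Without the 3 libraries that repeat a number it was not called either (-0.38, limma adjusted p = 0.058).

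Farther along the nephron the called changes were again all falls. In the distal convoluted and connecting tubule 9 of 20 genes fell and 0 rose (median -0.69). The calcium-binding proteins Pvalb (log2 change -4.04 ± 0.57) and Calb1 (-2.19 ± 0.26), the calcium exchanger Slc8a1 (-2.05 ± 0.33), the vitamin D receptor Vdr (-1.41 ± 0.24) and the salt regulators Klhl3 (-2.32 ± 0.17) and Wnk1 (-1.62 ± 0.28) fell. Klhl3 had 2054, 1863, 1875 and 2261 in PBS and 427, 294, 455 and 449 after glycerol, with no overlap between groups. The thiazide-sensitive cotransporter Slc12a3 fell by less, from 36009.5, 35231, 37753 and 41441 to 25059.5, 18759.9, 20899 and 23011, a log2 change of -0.78 ± 0.22 (SE, limma adjusted p = 0.018); leaving out WT PBS 4 or WT glycerol 2 ended that call (limma adjusted p = 0.05 to 0.052), and so did rescaling to the same total. The magnesium channel Trpm6 was not called (-0.34 ± 0.21).

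In the collecting duct, principal cell genes fell in 6 of 17 and rose in 0 (median -0.82), and intercalated cell genes fell in 12 of 20 and rose in 0 (median -1.11). Among principal cell genes the falls included Aqp3, the basolateral water channel (log2 change -2.00 ± 0.31), Hsd11b2, which protects the mineralocorticoid receptor from cortisol-like hormones (-1.40 ± 0.25), the sodium channel subunit Scnn1a (-1.04 ± 0.19) and the vasopressin receptor Avpr2 (-0.81 ± 0.19, not called after rescaling to the same total). Aqp2, the water channel inserted under vasopressin, had 4263, 3699.9, 3768 and 4912 in PBS and 2556, 3470.5, 2135 and 2091 after glycerol. All glycerol values were below all PBS values, but the change of -0.72 ± 0.32 (SE, limma adjusted p = 0.11) was not called. Without the 3 libraries that repeat a number, where 55.6% of all tested genes were called, Aqp2 was called (-0.63, limma adjusted p = 0.039). In intercalated cells the anion exchanger Slc4a1 (-3.05 ± 0.44), the ammonia channel Rhbg (-1.15 ± 0.12), the proton pump subunit Atp6v1b1 (-1.64 ± 0.25) and pendrin, Slc26a4 (-0.96 ± 0.20), fell, while the pump subunit Atp6v1g3 was not called (0.11 ± 0.27). Of 12 genes of thin limb and inner medulla 4 fell and 1 rose (33.3% and 8.33%, against 13.3% and 12.5% of all tested genes). The gene that rose was the small heat shock protein Cryab (2.22 ± 0.29). The urea transporter Slc14a2 was not called (0.09 ± 0.57, and 0.75 without WT glycerol 4).

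Transcription factors that maintain segment identity fell more often than they rose. Of 34 tested factors 13 fell and 2 rose. The proximal regulator Hnf4a (log2 change -1.57 ± 0.39), Maf (-1.76 ± 0.31), the mitochondrial coactivator Ppargc1a (-2.05 ± 0.30) and the distal factor Esrrb (-2.22 ± 0.36) fell. Hnf4a had 17343, 14936, 16641 and 18362 in PBS and 8221, 2179.9, 10048 and 5725 after glycerol. WT glycerol 2 was lowest, as for the proximal transporters, and the groups did not overlap. Elf3, an epithelial ETS factor, was higher, with 517, 539, 550.0 and 567 in PBS and 1564, 1698, 1468 and 1943 after glycerol (log2 change 1.61 ± 0.17 SE, limma adjusted p = 1.9e-05).

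**Figure D3:**
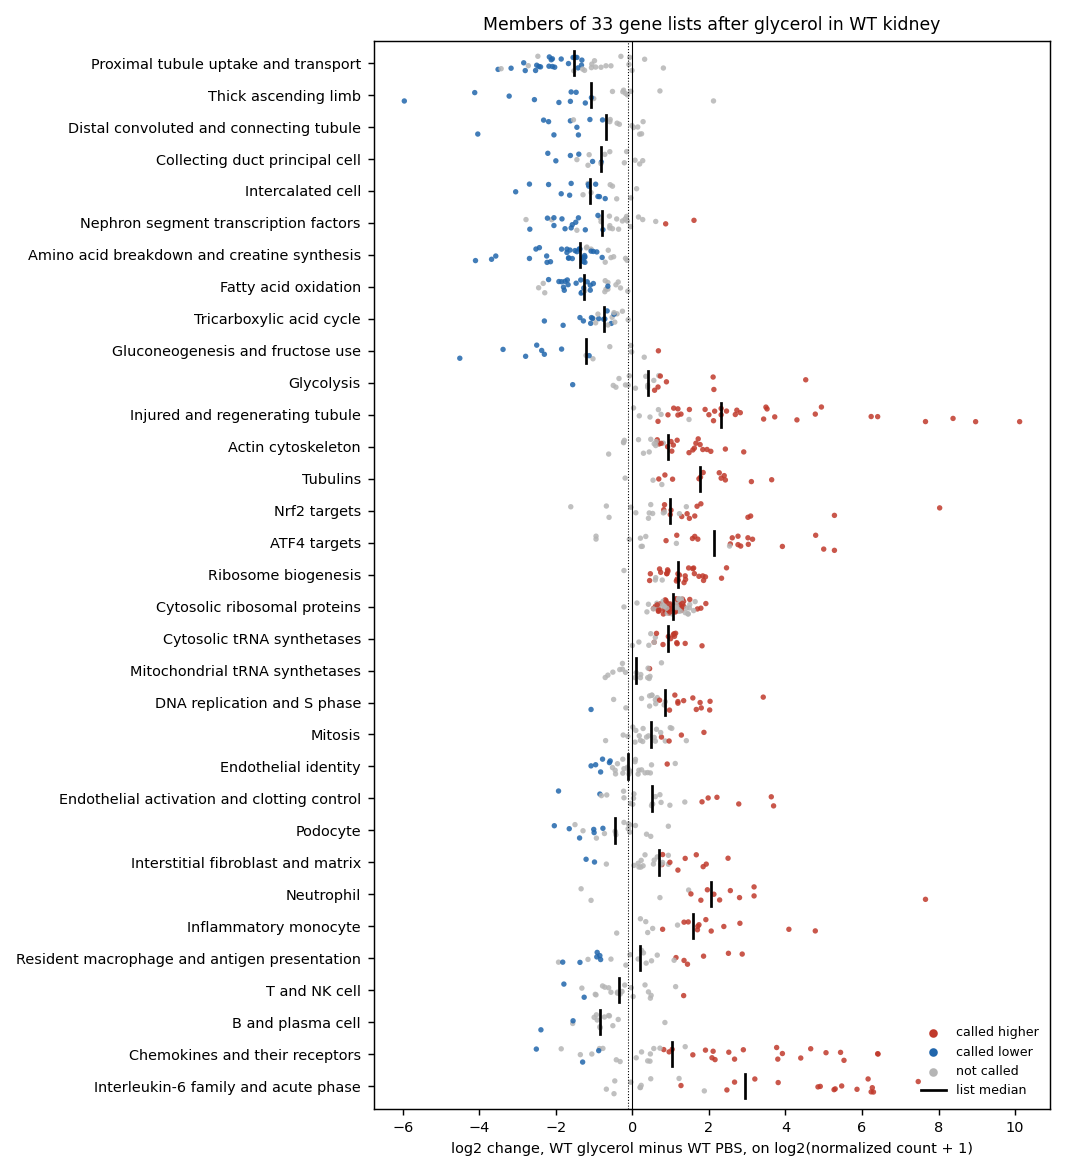
Log2 change (glycerol minus PBS, x axis) of each tested member of 33 gene lists and families in WT kidney. Each point is a gene, coloured red where called higher, blue where called lower and grey where not called; the black bar is the list median and the dotted line the median of all tested genes (-0.11). Medians lie below -1 for proximal transport, amino acid breakdown and fatty acid oxidation and above 2 for injured tubule, ATF4 targets, neutrophil genes and the interleukin-6 family.

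Genes of proximal tubule metabolism fell with the transporters. Of 39 genes of amino acid breakdown and creatine synthesis 30 fell and 0 rose (76.9%, against 13.3% of all tested genes), with a median of -1.37. Gatm, the first enzyme of creatine synthesis, had 25326, 27728, 29003 and 29043 in PBS and 2831, 855, 4835 and 587 after glycerol, a log2 change of -4.10 ± 0.57 (SE, limma adjusted p = 0.00015), with every glycerol library below every PBS library. Ass1, which makes the arginine precursor (-2.52 ± 0.44), fell as well. In tyrosine breakdown Hpd (-2.69 ± 0.67) and Hgd (-1.71 ± 0.38) fell, while Fah, the last enzyme, was called only without WT glycerol 4 (-1.20 ± 0.51 with it, -1.73 and adjusted p = 0.0072 without it).

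Fatty acid oxidation genes fell in 18 of 31 and rose in 0 (median -1.27). The medium-chain dehydrogenase Acadm had 21407, 27213, 24858 and 22796 in PBS and 8544, 5094, 10200.5 and 5626 after glycerol (log2 change -1.76 ± 0.25 SE, limma adjusted p = 0.00018), lowest in WT glycerol 2. Acaa2 (log2 change -1.85 ± 0.24), the fatty acid binding protein Fabp3 (-1.70 ± 0.19), the activating enzyme Acsl1 (-1.80 ± 0.27) and the entry enzyme Cpt1a (-1.34 ± 0.36) fell as well. Not every step moved: the changes of Acadl (-0.12 ± 0.21) and Cpt2 (-0.31 ± 0.30) were not called. Peroxisome genes fell in 15 of 25 and rose in 0 (median -0.77), with Amacr at -3.02 ± 0.62, the oxidase Hao2 at -2.54 ± 0.44 and catalase (Cat) at -0.99 ± 0.26. The Cat call ended after quantile normalization.

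In the tricarboxylic acid cycle 13 of 23 genes fell and 0 rose (median -0.75), led by pyruvate carboxylase, Pcx (-2.30 ± 0.41), and isocitrate dehydrogenase, Idh2 (-1.81 ± 0.18), whereas citrate synthase was not called (-0.11 ± 0.19). Of 15 genes of glucose formation and fructose use 8 fell and 1 rose (11 and 0 without WT glycerol 4). G6pc had 13533, 14222, 11974 and 13946 in PBS and 973, 106, 2309 and 499.5 after glycerol, with WT glycerol 2 lowest by far. Its log2 change of -4.51 ± 0.70 became -3.69 without WT glycerol 2 and -5.17 without WT glycerol 3. Pck1, the first committed enzyme (-3.38 ± 0.53; -2.71 without WT glycerol 2), Fbp1 (-2.50 ± 0.42) and glycerol kinase, Gk, the enzyme that lets cells use glycerol (-2.79 ± 0.47), fell as well. Of 23 genes of NAD synthesis and use 6 fell, among them the tryptophan pathway genes Kmo (-2.19 ± 0.41), Afmid (-2.74 ± 0.64) and Acmsd (-2.45 ± 0.55; -1.75 without WT glycerol 2), and 2 rose, among them Nnmt, which uses up nicotinamide (2.10 ± 0.43).

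Glycolysis moved the other way in part: 7 of 20 genes rose and 1 fell (median 0.40). Hk2, the inducible hexokinase, had 16.2, 10.4, 23.4 and 12.8 in PBS and 297, 749, 218 and 386 after glycerol (log2 change 4.53 ± 0.62 SE, limma adjusted p = 0.00013), with no overlap, while Hk1 was not called (-0.50 ± 0.23). The lactate exporter Slc16a3 rose by 2.11 ± 0.32 and enolase 2, Eno2, by 2.13 ± 0.45. The muscle-type phosphofructokinase Pfkm was the gene that fell (-1.56 ± 0.19). Polyamine genes split, with 5 of 15 higher and 4 lower (3 higher without WT PBS 1, 2 or 3): spermidine synthase (Srm, 2.42 ± 0.30), spermine oxidase (Smox, 2.54 ± 0.36) and arginase 2 (Arg2, 3.67 ± 0.92) rose and Oaz2 (-0.53 ± 0.12) and Sat2 (-1.55 ± 0.37) fell. Sterol genes split as well (5 of 20 higher, 4 lower; 4 and 4 after quantile normalization and 2 lower after rescaling to the same total), with Cyp51, which acts on lanosterol, at -1.56 ± 0.22.

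Of 38 complex I subunits of the respiratory chain 4 fell (10.5%, against 13.3% of all tested genes) and 0 rose, with a median of -0.36. The count of falls depended on the libraries: 10 fell when WT glycerol 4 was left out, and 37 without the 3 libraries that repeat a number, where 28.9% of all genes fell. After quantile normalization, or in a fit of the 8 WT libraries, 7 fell. Their summed level was 63.5, 58.9, 71.4 and 149.8 percent of the PBS mean in glycerol libraries 1 to 4, so that WT glycerol 4 lay above PBS and the other 3 below it. The same arrangement held for cytochrome c oxidase subunits (64.9, 65.6, 72.4 and 145 percent), of which 2 of 17 were called lower (11.8%, against 13.3% of all tested genes). That count was 0 when any 1 of the PBS libraries or WT glycerol 1 was left out, and 14 without the 3 libraries that repeat a number. Of 13 genes encoded by mitochondrial DNA, which share reads with nuclear copies, 2 were called lower and 0 without WT glycerol 4, without WT glycerol 2 or without any 1 of the PBS libraries. Rescaling all libraries to the same total also left 0, whereas 9 were called lower without the 3 libraries that repeat a number.

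Genes of injured and regenerating tubule cells rose almost throughout. Of 37 listed genes 36 were tested, 30 rose (83.3%, against 12.5% of all tested genes) and 0 fell, with a median of 2.32. The list was written with earlier results of these data known, so its direction is a description. Sox9 had 9.6, 15.5, 19.2 and 11 in PBS and 1202, 788, 890.5 and 2644 after glycerol (log2 change 6.41 ± 0.43 SE, limma adjusted p = 6.2e-07), and here WT glycerol 4 was highest. Lcn2 had 78.9, 104, 78.9 and 79.3 in PBS and 14177, 32840.5, 11427 and 17169.5 after glycerol (log2 change 7.66 ± 0.65 SE, limma adjusted p = 3.4e-06), with WT glycerol 2 highest. The galectin Lgals3 rose from 649, 667, 654 and 624 to 6202, 8760.2, 6523 and 8650.5, and no glycerol value overlapped PBS for any of these 3 genes. Spp1, which encodes osteopontin, made up 65.4% to 75.1% of the summed level of the list in the glycerol libraries. Without it the sum was 712.3, 1009, 596.8 and 548.5 percent of the PBS mean in glycerol libraries 1 to 4. The duct keratin Krt7 rose by less (0.67 ± 0.21), a call that ended when any of 4 of the 8 libraries was left out (adjusted p = 0.057 to 0.092).

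Families of the cytoskeleton and of the cell surface rose. Keratins rose in 6 of 13 and fell in 1. Of the 10 keratins that reached the minimum count in the PBS libraries of both genotypes alone, 4 rose and 1 fell (median 0.55). Annexins rose in 7 of 11 and fell in 1 (0 without WT PBS 1, 3 or 4 or WT glycerol 2). S100 proteins rose in 9 of 13, and tubulins rose in 12 of 15 with a median of 1.78. Anxa2, a membrane-binding partner of S100a10, had 1594, 1493, 1564 and 1529.5 in PBS and 11217, 16126, 9650.1 and 8201 after glycerol, and S100a10 itself had 1728, 1508, 1419 and 1379 and 7661, 11343, 7618 and 32639. The summed level of the tubulins was 297, 344, 297 and 331 percent of the PBS mean, which put the 4 glycerol libraries close together. Tubb6 (3.11 ± 0.33) and Tubb2b (2.43 ± 0.32) were among the tubulins that rose. Of 31 actin cytoskeleton genes 19 rose and 0 fell: Arpc1b, of the branching complex, by 2.05 ± 0.26, the actin-binding Tagln2 by 1.95 ± 0.23, the membrane linker Msn by 1.72 ± 0.23 and Tpm4 by 1.84 ± 0.26. Actb, often taken as a reference gene, had 13514, 13578, 13793 and 15002 in PBS and 28081, 34882, 24899 and 137705 after glycerol (log2 change 1.62 ± 0.56 SE, limma adjusted p = 0.044); WT glycerol 4 was the highest, and the call ended when any of 6 of the 8 libraries was left out (adjusted p = 0.066 to 0.12).

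Claudins, which set the tightness of the paracellular path, moved both ways, with 4 of 18 higher and 2 lower (1 without any 1 of the PBS libraries or WT glycerol 4). The shares were 22.2% and 11.1%, against 12.5% and 13.3% of all tested genes. Cldn4 had 372, 335, 308 and 347 in PBS and 1831, 3771, 1585 and 936 after glycerol (log2 change 2.39 ± 0.38 SE, limma adjusted p = 0.00041), Cldn1 rose by 1.76 ± 0.26 and Cldn7 by 1.58 ± 0.22, whereas Cldn10 had 6109, 6362, 5560.4 and 5822 and 2133, 943, 2978 and 1014. The change of Cldn8 (-1.94 ± 0.59; -1.33 without WT glycerol 4) was a call that ended when any of 5 of the 8 libraries was left out (adjusted p = 0.051 to 0.056). Of 30 junction and polarity genes 6 rose and 2 fell, and the cadherins Cdh1 (0.11 ± 0.18), Cdh2 (-0.62 ± 0.37) and Cdh16 (-0.48 ± 0.31) were not called.

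Heme and iron genes rose in 7 of 19 and fell in 1 (median 0.90). Hmox1 (ENSMUSG00000005413, GRCm38 chromosome 8, 75093621 to 75100589), the inducible heme oxygenase, had 651, 753, 869 and 793 in PBS and 7160.4, 12322, 5780.2 and 9752 after glycerol (log2 change 3.46 ± 0.43 SE, limma adjusted p = 6.3e-05), with no overlap, while the constitutive Hmox2 was not called (-0.03 ± 0.12). Of the 2 biliverdin reductase genes, Blvrb rose (2.85 ± 0.36) and Blvra was not called (0.17 ± 0.20). The heme transporter Slc48a1 rose by 0.90 ± 0.13, the ferritin heavy chain Fth1 by 1.20 ± 0.27 (not called after quantile normalization), the ferroxidase ceruloplasmin (Cp) by 2.15 ± 0.45 and haptoglobin (Hp), which binds free hemoglobin, by 2.47 ± 0.56.

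Targets of Nrf2, the factor that answers electrophiles and oxidants, rose in 14 of 27 (51.9%) and fell in 0 (median 0.99). Gsta1, a glutathione transferase with close copies, had 19.8, 20.2, 3.7 and 18.7 in PBS and 2869, 5106, 4493 and 2878 after glycerol. Srxn1, which repairs oxidized peroxiredoxins, had 1824, 1596, 1564 and 1638 and 10800.5, 25313, 12833 and 11255 (log2 change 3.09 ± 0.37 SE, limma adjusted p = 4.9e-05). Nqo1 rose by 1.49 ± 0.21 and the NADPH-forming enzymes Pgd and G6pdx by 1.79 ± 0.20 and 1.69 ± 0.21. The glutathione transferase family as a whole split, with 8 of 23 higher and 6 lower, among the latter Gstk1 (-1.58 ± 0.20) and Gstz1 (-1.63 ± 0.33).

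The metallothioneins, small proteins that bind zinc and copper, rose together. Mt2 had 271, 239, 218 and 239 in PBS and 6662, 16577, 5940.5 and 34038 after glycerol (log2 change 5.66 ± 0.59 SE, limma adjusted p = 1.7e-05), Mt1 had 1074, 872, 709 and 914 and 8130.5, 19658, 7724 and 34372 (log2 change 4.02 ± 0.54 SE, limma adjusted p = 0.00011), and Mt3 had 14.3, 8.9, 8.2 and 10.3 and 34.9, 58.9, 58.7 and 239 (log2 change 2.73 ± 0.56 SE, limma adjusted p = 0.0027). WT glycerol 4 was highest for all 3, and without it the changes of Mt2 and Mt3 were 5.17 and 2.17. Zinc transporters of the list did not rise: Slc39a5 (-1.88 ± 0.39) and Slc30a2 (-2.01 ± 0.52) fell and Slc30a1 was not called (-0.31 ± 0.41).

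The ATF4 programme, which cells switch on when amino acids run short or proteins misfold, rose in 17 of 26 genes (65.4%) and fell in 0, with a median of 2.13. Trib3, a pseudokinase, had 14.7, 15.3, 22.6 and 13.8 in PBS and 372, 688, 448 and 451 after glycerol (log2 change 4.79 ± 0.23 SE, limma adjusted p = 3.9e-08), and the 4 glycerol libraries lay close together. Asns, asparagine synthetase, had 113, 92.4, 157 and 76.7 and 1009, 1244, 1271 and 495 (log2 change 3.14 ± 0.38 SE, limma adjusted p = 5.7e-05). The mitochondrial folate enzyme Mthfd2 rose by 3.02 ± 0.37, the glutathione-degrading Chac1 by 3.92 ± 0.51, the serine-forming Phgdh by 1.57 ± 0.20, Atf5 by 3.03 ± 0.46 and Ddit3, which encodes CHOP, by 2.83 ± 0.47. Fgf21, a hormone of nutrient stress, was at 1.0 or less in PBS and had 22.9, 12.8, 29.4 and 208 after glycerol, highest in WT glycerol 4. Its log2 change was 5.00 ± 0.66 and 4.18 without that library.

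Promoters of the metallothioneins and of 2 ATF4 targets are shown because members of each group moved together. They are RefSeq sequences of build GRCm38.p6 from 250 bases before to 50 bases after the gene start. Each is read on the gene's strand from 5′ to 3′. Capitals mark matches on either strand to TGCGCNC, a form of the metal response element (Mt1, Mt2), or to the ATF4 composite site TGATGNAA (Asns, Trib3). Other forms of the metal response element, such as TGCACNC, were not searched, so unmarked letters may hold them. Asns and Trib3 lie on the minus strand and Mt1 and Mt2 on the plus strand.
Mt1 chr8:94178839-94179138: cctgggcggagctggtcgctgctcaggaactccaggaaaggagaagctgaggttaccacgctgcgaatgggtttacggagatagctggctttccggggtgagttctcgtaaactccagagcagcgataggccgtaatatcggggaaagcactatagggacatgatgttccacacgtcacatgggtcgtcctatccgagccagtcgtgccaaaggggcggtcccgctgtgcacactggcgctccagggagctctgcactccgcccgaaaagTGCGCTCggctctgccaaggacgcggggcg
Mt2 chr8:94172368-94172667: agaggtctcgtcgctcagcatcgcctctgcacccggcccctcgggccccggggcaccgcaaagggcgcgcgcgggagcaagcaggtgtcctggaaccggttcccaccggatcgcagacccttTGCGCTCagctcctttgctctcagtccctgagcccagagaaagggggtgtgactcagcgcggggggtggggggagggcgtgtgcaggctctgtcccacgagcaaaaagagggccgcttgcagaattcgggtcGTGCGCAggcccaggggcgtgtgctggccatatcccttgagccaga
Asns chr6:7693160-7693459: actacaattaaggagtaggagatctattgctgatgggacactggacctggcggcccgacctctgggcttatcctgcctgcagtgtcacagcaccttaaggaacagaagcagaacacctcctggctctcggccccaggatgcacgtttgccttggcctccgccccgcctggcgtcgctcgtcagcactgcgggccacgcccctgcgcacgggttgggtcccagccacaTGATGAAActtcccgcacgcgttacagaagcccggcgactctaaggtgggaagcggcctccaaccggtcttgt
Trib3 chr2:152344011-152344310: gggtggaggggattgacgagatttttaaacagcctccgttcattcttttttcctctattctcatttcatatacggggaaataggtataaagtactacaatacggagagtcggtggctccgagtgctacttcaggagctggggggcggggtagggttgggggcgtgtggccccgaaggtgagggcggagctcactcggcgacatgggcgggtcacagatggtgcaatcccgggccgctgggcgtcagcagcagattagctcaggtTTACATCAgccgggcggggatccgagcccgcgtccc
In Mt1 the match begins at base 21 after the start. In Mt2 there is a match 128 bases before the start and another, on the opposite strand, at base 5 after it. The match lies 23 bases before the start in Asns and, on the opposite strand, at base 15 after it in Trib3. The metal motif in the form TGCGCNC was found in 17.0% of 27025 genes with a window and in 28.1% of tested genes with a window. The ATF4 motif was found in 4.51% and 2.84%. Of 24 ATF4 targets with a window 7 held the ATF4 motif, and of 11 metallothionein and zinc transport genes with a window, not all of them tested, 6 held the metal motif, namely Mt1, Mt2 and 4 zinc transporters, of which Slc30a2 fell and Slc30a1 was not called. Among genes that rose and genes that fell the metal motif was in 27.6% and 25.4% and the ATF4 motif in 2.7% and 3.17%. Another 3 motifs were searched. The AP-1 site TGANTCA was in 10.1% of genes that rose and 6.76% of those that fell, against 6.91% of tested genes, and in 0 of 20 members of the list of AP-1, Egr and ATF factors. The heat shock pair GAANNTTC was in 6.29% and 7.52%, against 7.25%, and in 11 of 20 members of the heat shock list (55.0%). The antioxidant response core TGACNNNGC was in 16.5% and 15.9%, against 16.7%, and in 8 of 24 members of the Nrf2 list (33.3%). A match describes the letters of a window and does not show binding.

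Other stress programmes moved in part. Heat shock proteins rose in 6 of 25 and fell in 0 (median 0.22). The small heat shock proteins led: Hspb1 had 293, 333, 465 and 450.2 in PBS and 2822, 6324, 3178 and 5389.9 after glycerol (log2 change 3.46 ± 0.35 SE, limma adjusted p = 1.4e-05) and Hspb8 rose by 2.46 ± 0.30. The near-identical pair Hspa1a and Hspa1b, whose reads may be shared, had changes of 2.09 ± 0.55 and 1.80 ± 0.55, with overlap between groups. The Hspa1b call ended when any of 3 of the 8 libraries was left out (adjusted p = 0.071 to 0.083), and without WT glycerol 2 the Hspa1a change was 1.46. Chaperones of the endoplasmic reticulum rose in 6 of 26, in 9 without WT glycerol 4 and in 3 without WT PBS 1. Their best known member Hspa5 had 16743, 25409, 28903 and 30718 in PBS and 46813, 72043, 54426 and 15096 after glycerol. Glycerol libraries 1 to 3 lay above PBS and WT glycerol 4 below it, and the change of 0.72 ± 0.56 was not called. Derl3 (3.32 ± 0.68; 3.92 without WT glycerol 4) and Creld2 (1.75 ± 0.31) rose.

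Immediate-early and growth-signalling factors rose in 9 of 25 and fell in 0. Fosl1 had 3.1, 2.9, 0.7 and 0 in PBS and 371, 1113, 348 and 1298 after glycerol (log2 change 8.17 ± 1.24 SE, limma adjusted p = 0.00032), and all glycerol values were above PBS. Myc (log2 change 3.17 ± 0.29 SE, limma adjusted p = 5e-06) and Maff (3.72 ± 0.35) rose, whereas Fos (0.03 ± 0.49) and Fosb (-0.52 ± 0.76; -1.24 without WT glycerol 4) were not called. Among 29 feedback inhibitors 10 rose, led by Socs3, which restrains interleukin-6 signalling, and 2 fell (4 without WT glycerol 4). Socs3 had 55.9, 50.4, 74.9 and 68.0 in PBS and 2068, 3165, 1841 and 3050.1 after glycerol (log2 change 5.30 ± 0.44 SE, limma adjusted p = 3e-06). The phosphatases for MAP kinases diverged: Dusp5 rose (3.27 ± 0.41) and Dusp1 fell (-1.49 ± 0.22).

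Of 24 p53 targets 10 rose and 2 fell. Cdkn1a, the cell cycle inhibitor p21, had 222, 188, 223 and 269 in PBS and 1778, 4052, 1734 and 2729.8 after glycerol (log2 change 3.43 ± 0.40 SE, limma adjusted p = 4.2e-05), Phlda3 rose by 1.99 ± 0.29 and Mdm2 was not called (0.27 ± 0.15). Among 25 cell death genes 9 rose and 2 fell. The necroptosis genes Mlkl (log2 change 3.14 ± 0.37 SE, limma adjusted p = 4.4e-05) and Ripk3 (3.07 ± 0.51) rose. The pyroptosis genes Gsdmd (0.70 ± 0.62; 0.07 without WT glycerol 4), Gsdme (-0.48 ± 0.23) and Casp1 (0.15 ± 0.29) were not called. Nlrp3, the inflammasome sensor, was not called with all libraries (1.09 ± 0.47) and was called without WT glycerol 4 (1.48, adjusted p = 0.021). In lysosome and autophagy genes 7 of 27 rose (4 without WT PBS 3), among them the protease Ctsd (1.82 ± 0.22) and the cargo receptor Sqstm1 (1.36 ± 0.22), and 5 fell, among them Gabarapl1 (-1.82 ± 0.16).

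Several groups of genes for making ribosomes and proteins rose. Ribosome biogenesis genes rose in 26 of 30 (86.7%) and fell in 0 (median 1.19), for example Nop58, of the snoRNP core, with 713, 635, 709 and 716 in PBS and 2192, 3636, 2312 and 2056 after glycerol (log2 change 1.84 ± 0.23 SE, limma adjusted p = 6.5e-05). Cytosolic tRNA synthetases rose in 13 of 19 and fell in 0, with a summed level of 177, 185, 185 and 184 percent of the PBS mean in the 4 glycerol libraries. That narrow range included WT glycerol 4. For the mitochondrial enzymes the levels were 85.5, 86.4, 95.3 and 359.5 percent, with WT glycerol 4 far above the other 3. The median change of the members was 0.10 with that library and -0.07 without it. Its high sum thus does not show that most members were high in it. These mitochondrial counterparts rose in 1 of 17 (Ears2, 0.45 ± 0.15; the call ended when any of 6 of the 8 libraries was left out, adjusted p = 0.051 to 0.12), with a median of 0.10 against 0.94 for the cytosolic enzymes.

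Cytosolic ribosomal proteins rose in 48 of 85 and fell in 0, with glycerol above PBS without overlap in 78. Their summed level was 159, 207, 168 and 431 percent of the PBS mean, highest by far in WT glycerol 4, in which short genes read high. Without that library 35 were called and the median went from 1.07 to 0.80. The count was 31 without WT PBS 3, 74 after rescaling to the same total and 83 without the 3 libraries that repeat a number. The part of gene length in the higher value was not tested. Mitochondrial ribosomal proteins rose in 7 of 78 (8.97%, below the 12.5% of all tested genes; 16 after rescaling to the same total and 26 without the 3 libraries that repeat a number). Proteasome subunits rose in 24 of 49 (13 without WT PBS 1 or 3 and 14 without WT PBS 4) and eukaryotic initiation factors in 18 of 54, and in these 3 families 0 fell.

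Genes of DNA synthesis rose in 13 of 26 and fell in 1, and in 18 without WT glycerol 4. Uhrf1, which copies DNA methylation marks, had 51.4, 51.0, 47.5 and 61.6 in PBS and 587, 562, 467 and 697 after glycerol (log2 change 3.42 ± 0.25 SE, limma adjusted p = 9.4e-07), and the helicase subunits Mcm2 (1.34 ± 0.21) and Mcm3 (2.02 ± 0.28) rose. Genes of mitosis rose in 4 of 24 (16.7%, against 12.5% of all tested genes), with a median of 0.49. The count was 7 without WT glycerol 4 and 2 without WT PBS 3 or WT glycerol 2. The difference from the S phase list was not tested. Mki67 had 132, 174, 198 and 219 in PBS and 400.2, 265, 225 and 134 after glycerol and was not called (0.42 ± 0.34), Top2a rose (1.28 ± 0.34), and Cdk1 was called only without WT glycerol 4 (1.03 ± 0.42 with it, 1.42 and adjusted p = 0.0099 without it).

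Endothelial identity genes had a median change of -0.10, close to that of all tested genes (-0.11). Of 30 genes 1 rose and 6 fell (3.33% and 20%, against 12.5% and 13.3%). The falls were not stable: 2 were called without WT PBS 3, 3 without WT PBS 4, and 0 after rescaling to the same total, when 2 genes rose. Pecam1 had 2015, 2076, 2074 and 1925 in PBS and 2058, 2219, 1938 and 1522 after glycerol, groups that overlap (log2 change -0.08 ± 0.16 SE, limma adjusted p = 0.75), and Cdh5 (-0.08 ± 0.18) and Flt1 (-0.13 ± 0.15) were not called either. The receptor for vascular endothelial growth factor Kdr had 3219.6, 3099.5, 3205 and 2797 and 1819, 1889, 1740.3 and 748 and fell (log2 change -1.08 ± 0.26 SE, limma adjusted p = 0.0068; not called after rescaling to the same total), and Nos3, which makes nitric oxide, rose (0.91 ± 0.22). The fall of Tek, the angiopoietin receptor (-0.78 ± 0.24), ended when any of 3 of the 8 libraries was left out (adjusted p = 0.053 to 0.063). The summed level of the list was 86.4, 98.0, 84.1 and 92.2 percent of the PBS mean.

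Ligands of the vessel wall and activation genes moved more. Vegfa, made by podocytes and tubule cells, had 7164, 6819.9, 7551 and 7967 in PBS and 3594, 3006, 3818 and 3932 after glycerol (log2 change -1.04 ± 0.15 SE, limma adjusted p = 0.00026), with no overlap. Angpt1, the stabilizing ligand of Tek, had 580.5, 639.9, 651 and 629 and 159, 135, 137 and 41.9 (log2 change -2.55 ± 0.38 SE, limma adjusted p = 0.00028) and fell, as did its antagonist Angpt2 (-1.93 ± 0.43) and Vegfd (-1.30 ± 0.25), while Pdgfa (1.35 ± 0.21) and Pdgfb (1.29 ± 0.22) rose. In all 7 of 29 angiogenic genes fell and 4 rose (24.1% and 13.8%, against 13.3% and 12.5% of all tested genes). After rescaling to the same total 4 fell and 5 rose. The rises were 2 without WT PBS 1, 2 or 3 or WT glycerol 2. Endothelial activation and clotting genes rose in 6 of 24 and fell in 2 (10 and 1 without WT glycerol 4). P-selectin, Selp, had 13.5, 7.0, 3.9 and 3.6 in PBS and 83.2, 102, 57.1 and 122 after glycerol (log2 change 3.63 ± 0.53 SE, limma adjusted p = 0.00024), Icam1 rose by 1.82 ± 0.27, tissue factor, F3, by 2.21 ± 0.28, the protein C receptor Procr by 3.69 ± 0.63 and endothelin 1, Edn1, by 1.98 ± 0.29. E-selectin, Sele, was not called with all libraries (0.72 ± 1.18) or without WT glycerol 4, in which it was listed at 0 (2.03, limma adjusted p = 0.12). Several of these genes are also expressed by tubule cells.

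Endothelial subtype markers fell in 7 of 21 (4 without WT PBS 2 or after rescaling to the same total) and rose in 1. Prox1, of lymphatic endothelium and also of the thick limb, fell (-3.06 ± 0.81; -2.03 without WT glycerol 4), as did Nr2f2 of veins (-0.82 ± 0.20, not called after rescaling to the same total). Pdpn, of lymphatics and podocytes, rose (1.62 ± 0.30). Of 19 smooth muscle, pericyte and renin cell genes 4 fell and 2 rose (21.1% and 10.5%, against 13.3% and 12.5% of all tested genes). After rescaling to the same total 3 fell and 3 rose. The angiotensin receptor Agtr1a (-1.50 ± 0.27) and the pericyte gene Rgs5 (-0.89 ± 0.23, not called after rescaling to the same total) fell, and the contractile genes Acta2 (0.36 ± 0.29) and Myh11 (-0.52 ± 0.31) were not called. In vasoactive systems 6 of 21 genes fell and 4 rose (28.6% and 19.0%, against 13.3% and 12.5% of all tested genes). The converting enzyme Ace was among the falls (-1.22 ± 0.29). The rises were led by the bradykinin receptor Bdkrb2. It had 34.9, 21.8, 38.5 and 26.9 in PBS and 249, 531, 203 and 561 after glycerol (log2 change 3.51 ± 0.38 SE, limma adjusted p = 2.3e-05). Renin, Ren1, was not called (0.48 ± 0.20). Of 19 hypoxia genes 3 rose (15.8%, against 12.5% of all tested genes) and 4 fell (21.1%, against 13.3%). The rises were 0 without WT PBS 2 or 3 or WT glycerol 2, and 1 after rescaling to the same total. The falls were 2 without any 1 of the PBS libraries.

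Podocyte genes fell in 6 of 22 (27.3%, against 13.3% of all tested genes) and rose in 0. In the fit without WT glycerol 4 the numbers were 5 and 2. Without WT PBS 2 or 3 or WT glycerol 2, 3 fell, and after rescaling to the same total 2 fell. Their summed level was 83.6, 78.3, 79.1 and 31.6 percent of the PBS mean, so that WT glycerol 4 stood apart. The slit diaphragm gene Nphs1 had 735, 771, 810.0 and 816 in PBS and 682, 769.8, 594 and 904 after glycerol and was not called (log2 change -0.10 ± 0.19 SE, limma adjusted p = 0.72). The basement membrane collagen Col4a4 (-1.65 ± 0.36) and Clic5, of the foot process (-1.38 ± 0.40, not called after rescaling to the same total), fell. Interstitial fibroblast and matrix genes rose in 9 of 26 and fell in 2. Tnc, a matrix protein of repair, had 249.7, 302, 372 and 268 in PBS and 1952, 2239.8, 1007 and 1780.2 after glycerol (log2 change 2.50 ± 0.41 SE, limma adjusted p = 0.00055), and the fibrillar collagens Col1a1 (1.85 ± 0.36), Col3a1 (1.93 ± 0.39) and Col5a1 (1.67 ± 0.29) rose. Collagens as a family split, with 9 of 37 higher and 8 lower (5 lower without any 1 of the PBS libraries).

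**Figure D4:**
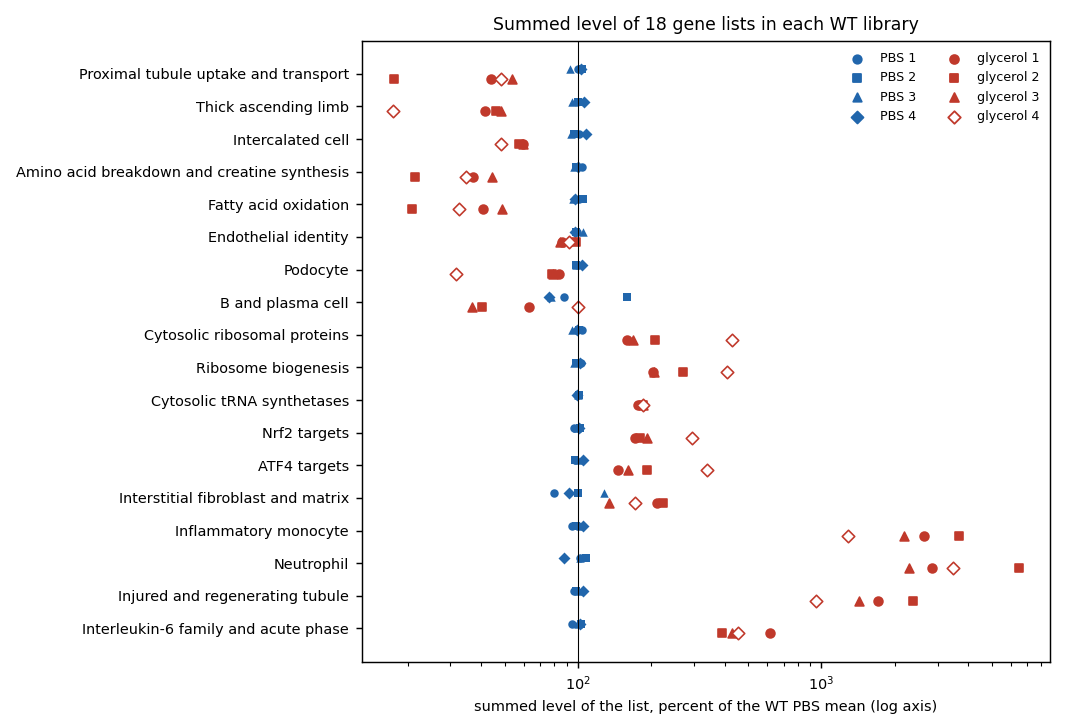
Summed normalized count of 18 gene lists in each WT library as a percent of the PBS mean (log axis); blue symbols are PBS and red symbols glycerol libraries, the open diamond is WT glycerol 4 and the vertical line marks 100%. The injured tubule sum, mostly Spp1, lies between 945.4% and 2383% and the neutrophil sum, mostly Lcn2, between 2295% and 6473% in the glycerol libraries. The inflammatory monocyte sum, also mostly Spp1, lies between 1284% and 3658% in them, and endothelial identity stays between 84.1% and 98.0%. WT glycerol 4 differs from the other 3 for podocyte and ribosomal protein genes and for the thick limb sum, in which Umod weighs heavily.

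Several markers of neutrophils and inflammatory monocytes rose. Of 22 listed neutrophil genes 14 were tested, and 10 rose and 0 fell. Among the listed genes not tested, Ly6g, Ngp, Camp, Elane and Mpo were absent from the data. Mmp8, Cd177 and Fpr1 were below the minimum. For 7 of the 14 the minimum was reached only with the help of glycerol libraries, in which they are high. Of the other 7, which reached it in the PBS libraries of both genotypes alone, 5 rose (median 1.79). The receptors Csf3r (1.96 ± 0.42), Clec4d (3.18 ± 0.57) and Trem1 (3.18 ± 0.68) rose. The alarmin S100a9 had 83.8, 62.3, 37.0 and 67.7 in PBS and 219, 447, 215 and 241 after glycerol (log2 change 2.13 ± 0.58 SE, limma adjusted p = 0.014), and S100a8 had 56.9, 46.0, 34.5 and 50.4 and 144, 335, 139 and 104 (log2 change 1.79 ± 0.61 SE, limma adjusted p = 0.042). The groups did not overlap, but the S100a8 call ended when any of 7 of the 8 libraries was left out (adjusted p = 0.058 to 0.13). Cxcr2, the receptor that guides neutrophils, was listed at 0 in WT glycerol 4, with 35.6, 55.4, 23.4 and 0 after glycerol against 9.5, 5.0, 7.7 and 11.5 in PBS; it was not called with that library (0.72 ± 1.00) and was called without it (2.03, adjusted p = 0.025). The list also holds Lcn2, which injured tubule cells make as well and which made up 93.0% to 95.4% of its summed level in the glycerol libraries. Without Lcn2 the sum was 207.0, 361.7, 177.1 and 290.9 percent of the PBS mean in glycerol libraries 1 to 4.

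Inflammatory monocyte genes rose in 12 of 18 and fell in 0 (median 1.58), and in 10 of the 16 that reached the minimum in the PBS libraries alone. Cd14, a co-receptor for endotoxin, had 152, 163, 147 and 159 in PBS and 1289, 1309, 1107 and 774 after glycerol (log2 change 2.81 ± 0.32 SE, limma adjusted p = 3.1e-05), Chil3 had 12.2, 8.9, 4.7 and 8.8 and 158, 484, 118 and 66.1 (log2 change 4.09 ± 0.55 SE, limma adjusted p = 0.00012) and Plac8 rose by 2.06 ± 0.18. The classical monocyte markers Ly6c2 (0.53 ± 0.52) and Ccr2 (0.40 ± 0.31) were not called. Osteopontin, Spp1, which tubule cells also make, had 23499, 24401, 24839 and 26184 in PBS and 784466, 1091026, 652031 and 378675 after glycerol, between 0.986% and 4.09% of all normalized counts of a glycerol library against at most 0.0807% in PBS. Spp1 made up nearly all of the summed level of this list after glycerol, 784466 of 797281 in WT glycerol 1 and 378675 of 388311 in WT glycerol 4.

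Resident macrophage and antigen presentation genes split, with 6 of 24 higher and 6 lower. Adgre1, which encodes F4/80, had 194, 200.4, 228 and 213 in PBS and 124, 138, 134 and 31.6 after glycerol. All glycerol values lay below PBS, WT glycerol 4 lowest, and the change of -1.16 ± 0.55 (SE, limma adjusted p = 0.13) was not called. The receptor Csf1r (-0.92 ± 0.23) and the class II genes Cd74 (-0.83 ± 0.19) and H2-Eb1 (-0.93 ± 0.15) fell, while the lysosomal protein Cd68 (2.87 ± 0.37) and the macrophage growth factors Csf1 (1.86 ± 0.24) and Il34 (2.51 ± 0.42), the latter made by tubule cells, rose. Lymphocyte markers were low. Of 28 listed T and NK cell genes 22 were tested, and 1 rose and 2 fell. The shares were 4.55% and 9.09%, against 12.5% and 13.3% of all tested genes. The numbers were 2 and 0 without WT glycerol 4 and 1 and 0 after rescaling to the same total. Of 14 tested B and plasma cell genes 0 rose and 2 fell (14.3%, against 13.3%). Cd3e had 17.0, 15.4, 15.5 and 14.1 in PBS and 8.6, 5.1, 7.6 and 0 after glycerol, and its call (-1.79 ± 0.61; -1.04 without WT glycerol 4) ended when any of 6 of the 8 libraries was left out (adjusted p = 0.059 to 0.088). At such counts the level in WT glycerol 4, where 1 read weighs 8.42, says little.

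Several chemokines that draw neutrophils and monocytes rose. Of 46 listed chemokines and receptors 39 were tested, and 21 rose and 3 fell. Only 25 reached the minimum in the PBS libraries of both genotypes alone, of which 9 rose and 3 fell (median 0.46). Cxcl1, which draws neutrophils, had 119, 41.0, 89.8 and 75.1 in PBS and 3278, 1466, 2695 and 3319 after glycerol (log2 change 5.06 ± 0.49 SE, limma adjusted p = 8.8e-06), and Ccl2, which draws monocytes, had 14.5, 6.8, 23.7 and 7.1 and 201, 291, 187 and 112 (log2 change 3.92 ± 0.49 SE, limma adjusted p = 6.9e-05). Both were above PBS in every glycerol library. Cxcl2 (4.40 ± 0.47), Ccl7 (5.53 ± 0.58), Ccl12 (5.44 ± 0.43) and Ccl20 (6.41 ± 0.58) rose as well, and Cxcl5 was listed at 0 in all PBS libraries and had 106, 96.2, 61.4 and 82.4 after glycerol. Ccl5, a T cell chemokine, was not called (1.38 ± 0.67), and the call of Ccl3 (2.08 ± 0.72) ended when any of 7 of the 8 libraries was left out (adjusted p = 0.051 to 0.14).

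The interleukin-6 family and acute phase genes formed the immune list with the highest median, 2.94: of 26 tested genes 16 rose (61.5%) and 0 fell. Among the 21 that reached the minimum in the PBS libraries alone 12 rose (median 2.47). Of the ligands, Il6 had 0.9, 0.5, 1.9 and 2.4 in PBS and 120.2, 208, 103 and 38.9 after glycerol (log2 change 5.47 ± 0.61 SE, limma adjusted p = 2.7e-05), Lif had 12.2, 5.2, 10.5 and 8.7 and 612, 1214, 579 and 708 (log2 change 6.24 ± 0.42 SE, limma adjusted p = 6.2e-07), Il11 had 4.0, 7.4, 1.1 and 2.8 and 242, 880.2, 150.1 and 264 (log2 change 6.16 ± 0.79 SE, limma adjusted p = 8.5e-05) and Clcf1 rose by 3.20 ± 0.36. All 4 ligands were above PBS in every glycerol library. The receptor Osmr rose by 2.67 ± 0.27. Among acute phase products the fibrinogen chains Fgg and Fgb had 237, 182, 151 and 162 and 50.6, 39.1, 46.9 and 76.7 in PBS and 22623, 9522, 13041 and 13630.5 and 5788, 3852, 2802 and 4708 after glycerol, log2 changes of 6.27 ± 0.65 and 6.30 ± 0.69, and Lrg1 rose by 5.27 ± 0.55.

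In the tumour necrosis factor, interleukin-1 and NF-kB list 14 of 25 genes rose and 0 fell. The TWEAK receptor Tnfrsf12a had 246, 273, 270.1 and 297 in PBS and 4979.7, 7379.5, 5185 and 25092 after glycerol (log2 change 4.94 ± 0.57 SE, limma adjusted p = 3.8e-05), and the NF-kB subunits Nfkb2 (1.97 ± 0.22), Relb (2.12 ± 0.24) and Rela (1.02 ± 0.16) rose. Tnf itself was called at low counts, with 0, 0, 3.5 and 0 in PBS and 11.9, 14.9, 9.9 and 8.1 after glycerol (log2 change 3.04 ± 0.73 SE, limma adjusted p = 0.0069). Interferon-stimulated genes rose in 9 of 30 (5 without WT PBS 1, 2 or 4) and fell in 2, for example Isg15 (1.57 ± 0.37) and Oasl1 (2.38 ± 0.44) upward and Cmpk2 (-1.54 ± 0.38) downward. Of 25 Toll-like receptor genes 6 rose (2 without WT PBS 1 or 2 and 3 without WT PBS 3 or WT glycerol 2), among them the adaptor Myd88 (1.35 ± 0.17), and 1, Tlr12, fell (-1.96 ± 0.42). Tlr4, a receptor that heme can engage, had 144, 161, 203 and 178 in PBS and 279.9, 266, 209 and 16.9 after glycerol. Glycerol libraries 1 to 3 lay above PBS and WT glycerol 4 far below it, and the change was not called with all libraries (-0.40 ± 0.70) or without that one (0.55, limma adjusted p = 0.33).

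Complement genes rose in 7 of 32 (21.9%, against 12.5% of all tested genes) and fell in 5 (15.6%, against 13.3%), with a median of 0.05. The falls were 3 without WT PBS 2, 3 or 4 or WT glycerol 1 or 2. C3 (ENSMUSG00000024164, GRCm38 chromosome 17, 57203970 to 57228136), the central component, had 335, 361, 470.5 and 425 in PBS and 3729, 1712, 2783 and 4718 after glycerol (log2 change 2.94 ± 0.48 SE, limma adjusted p = 0.00053), with no overlap. The anaphylatoxin receptor C5ar1 rose by 2.23 ± 0.37, C1qb by 1.14 ± 0.30 and clusterin, Clu, which blocks the terminal complex and also marks injured tubules, by 3.43 ± 0.59, while C1qa (0.50 ± 0.25) and C1qc (0.36 ± 0.25) were not called. The receptor Cr2 (-2.39 ± 0.43) and the terminal component C8a (-2.75 ± 0.57) fell.

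Families defined by gene symbol alone reached beyond these lists. Of 303 solute carriers 100 fell (33%) and 32 rose (10.6%). Slc22a22 (-4.23 ± 0.73), an organic anion transporter, had the largest fall among those called and Slc7a11, the cystine importer, the largest rise (5.28 ± 0.98; 6.10 without WT glycerol 4 and 4.69 without WT glycerol 2). Cytochromes P450 fell in 16 of 52 and rose in 5. Cyp2a5, which has close copies, had 2430.5, 1124, 910.1 and 1110.0 in PBS and 20729.8, 17781, 34625 and 242629 after glycerol (log2 change 5.02 ± 0.87 SE, limma adjusted p = 0.00082), the highest value by far in WT glycerol 4, and without it the change was 4.18. Aldehyde dehydrogenases fell in 8 of 19 and rose in 4, with Aldh1a2, which makes retinoic acid, at 4.61 ± 0.69. Serpins rose in 9 of 28, led by Serpina10 (5.28 ± 0.34). Small nucleolar RNA host genes rose in 7 of 17, among them Snhg1 (1.78 ± 0.29).

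Secreted signals and matrix enzymes moved in both directions. Metalloproteinases and their inhibitors rose in 7 of 19 and fell in 3 (4 and 3 of the 15 that reached the minimum in the PBS libraries alone). Timp1, which blocks these proteases, had 2.7, 6.5, 6.1 and 4.1 in PBS and 1557, 3265, 859.8 and 2804 after glycerol, a level that in every glycerol library was far above PBS, whereas Timp3, held in the matrix, had 69770.1, 63709, 68219 and 75099.6 and 34668, 13135, 37539 and 14734 and fell (log2 change -1.62 ± 0.43 SE, limma adjusted p = 0.012). Mmp10 was listed at 0 in all PBS libraries and had 51.7, 372, 42.1 and 16.9 after glycerol. Integrins rose in 9 of 28 and fell in 2, with the laminin receptor chain Itga3 higher (1.74 ± 0.19) and the mesangial chain Itga8 lower (-1.41 ± 0.28). Interleukins rose in 7 of 15 and fell in 3 (4 and 2 of the 9 that reached the minimum in the PBS libraries alone). Among them Il1rn, the decoy ligand of the interleukin-1 receptor, had 5.8, 9.1, 12.5 and 6.0 and 272, 473, 310.0 and 83.9 (log2 change 4.75 ± 0.81 SE, limma adjusted p = 0.00073).

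Growth factors of the transforming growth factor family rose in 4 of 16 and fell in 3. The stress hormone Gdf15 had 147, 135, 176 and 308 in PBS and 743, 1295, 892 and 2676 after glycerol (log2 change 2.76 ± 0.43 SE, limma adjusted p = 0.00038), and the activin subunits Inhba (2.48 ± 0.52) and Inhbb (2.24 ± 0.44) rose, while Bmp7, a factor of epithelial maintenance, fell (-1.14 ± 0.19). WNT ligands rose in 3 of 13 and fell in 3 (23.1% each, against 12.5% and 13.3% of all tested genes). The falls were 5 without WT glycerol 3. Of the 11 ligands that reached the minimum in the PBS libraries alone, 1 rose and 3 fell (median -1.04). Wnt10a (1.86 ± 0.26) and Wnt7b (1.02 ± 0.23) were higher and Wnt5b (-1.17 ± 0.28) was lower. Kruppel-like factors rose in 3 of 15 and fell in 5. Klf5, an epithelial factor, had 77.1, 75.5, 69.5 and 87.7 in PBS and 344, 642, 282 and 1465 after glycerol (log2 change 2.82 ± 0.54 SE, limma adjusted p = 0.0015), and Klf15 had 2359.7, 2113, 1933 and 2418 and 532, 204, 787 and 385 and fell (log2 change -2.36 ± 0.38 SE, limma adjusted p = 0.0005). For both genes the groups did not overlap. Aquaporins fell in 5 of 9, among them Aqp1, the water channel of proximal tubule and thin limb (-2.09 ± 0.47), and Aqp11 (-2.32 ± 0.28), and rose in 1, Aqp8 (2.27 ± 0.33). Without WT glycerol 4, without any 1 of the PBS libraries or after rescaling to the same total, 3 aquaporins fell.

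Long intergenic and antisense noncoding genes were called lower more often than higher, and processed pseudogenes were not. Among 602 long intergenic noncoding RNAs 27 rose and 150 fell, and among 605 antisense transcripts 18 rose and 106 fell, against 2102 and 1961 of 14893 protein-coding genes. Of 743 processed pseudogenes 66 rose and 32 fell. The counts without WT glycerol 4 were 29 and 145, 21 and 122, 2190 and 1930, and 71 and 31. After rescaling to the same total they were 29 and 119, 23 and 88, 2340 and 1372, and 69 and 23. In WT glycerol 4, 177 of the intergenic, 177 of the antisense and 334 of the pseudogenes were listed at 0, against 761 protein-coding genes. The median PBS means were 28.8, 24.3 and 25.9, against 547.4 for protein-coding genes. The median change of the pseudogenes was -0.29 with that library and 0.28 without it. The strand setting of the authors' counting was not given in any source used here, and reads of an antisense gene and its partner may be mixed, and processed pseudogenes share reads with their parent genes.

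Lists for tissues that a section could carry besides kidney were short, with at most 8 tested genes each. Of 14 skeletal muscle genes 5 were tested, with 1 higher (Tnni2, 2.43 ± 0.65; 1.76 without WT glycerol 4) and 1 lower (0 lower without WT PBS 2). Of 6 tested platelet genes 0 rose and 0 fell. The summed levels were 57.0, 85.5, 41.2 and 348 percent of the PBS mean for the muscle list and 72.6, 61.4, 63.1 and 181 percent for the platelet list in glycerol libraries 1 to 4, so that WT glycerol 4 was above PBS and the other 3 below it for both. Of 8 urothelial genes 1 fell and 0 rose, and their sum was 148, 159, 52.8 and 26.3 percent of the PBS mean in glycerol libraries 1 to 4, above PBS in the first pair and below it in the second. Their part in other results was not tested. Of 10 listed adipocyte genes 5 were tested, and 2 fell (40%, against 13.3% of all tested genes), among them Car3 (-4.73 ± 0.75), and 0 rose. The summed level of this list was 11.6, 2.9, 21.4 and 16.5 percent of the PBS mean in glycerol libraries 1 to 4. Car3 held little of it, 1726.5 of 50763.2 in WT PBS 1. The listed fat genes Adipoq, Plin1, Lep, Retn and Cfd were absent from the data. The sum therefore does not show how much fat tissue a section held. Circadian clock genes fell in 6 of 18 and rose in 1. The output factors Hlf (-3.04 ± 0.45) and Tef (-1.73 ± 0.33) fell, whereas Arntl (-0.41 ± 0.34), Clock (-0.37 ± 0.46; 0.11 without WT glycerol 4) and Per1 (-0.08 ± 0.22) were not called.

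Of the 3203 distinct members of lists and families, 296 changed their call when WT glycerol 4 was left out. Of these 138 lost it (81 that had risen and 57 that had fallen) and 158 gained it (90 higher and 68 lower), and none was called in opposite directions. The largest shifts were those of Ugt1a9 (3.38 with the library, 5.24 without), Pcdh8 (0.86 and 2.16), Cxcr2 (0.72 and 2.03), Bub1 (0.01 and 1.21) and Aqp9 (1.60 and 2.74), all listed at 0 in WT glycerol 4.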

How the data were processed

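RNA of mouse kidney sections was sequenced in 16 libraries, 4 in each combination of genotype and treatment. Per the submitters' processing notes the authors used STAR 2.7.1, DESeq2 and R 3.6.1 with build GRCm38, and gene models are of Ensembl release 96 per the file headers. No source used here gives the counting tool or its strand setting. The authors deposited normalized counts per gene (a signal, not whole reads) and tables of log2 fold changes, p-values and test scores per comparison. Whole reads could not be recovered, so no count model was run.

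Values were analysed as log2(normalized count + 1) for genes at 10 or more in at least 4 of 16 libraries with limma 3.58.1 in R 4.3.3 (trend, 1 coefficient per group, Benjamini-Hochberg adjustment). The method was tested on simulated data. Calls had an adjusted p below 0.05. Lists and members were chosen with earlier results of these data known, so list counts are descriptions. Named were the 12 largest rises and falls (mean of at least 50 over the WT libraries, no overlap), per list up to 6 members of smallest p and the 4 defining ones, the extreme called members of families, 11 genes of general interest, and members that depend on WT glycerol 4. Some genes these rules pick are not reported here. Levels are means of 4 libraries; ± is the standard error of the fit. Alternatives covered pseudocount, filter, scaling, the libraries fitted, weights, covariate, trend and replicate block.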

Additional observations from a re-analysis of the deposited data

Results flagged for a closer look

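For each named gene the 4 libraries of a group were examined for 1 that lay far from the others, by the gap from the highest or lowest library to its neighbour as a share of the range of the group. A share above 0.829 was noted, which happens by chance in about 1 in 20 groups. It did in 61 of 612 groups, of which 32 concerned WT glycerol 4, 11 WT glycerol 2, 0 WT glycerol 1 or 3 and 18 a PBS library.

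WT glycerol 4 lay above the other 3 glycerol libraries with these shares of the range: Acaa2 0.865, Actb 0.912, Amn 0.86, Atf5 0.952, Bsnd 0.869, Cdh16 0.917, Cyp2a5 0.925, Eno2 0.915, Fgf21 0.915, Fosb 0.902, Fth1 0.871, Gsdmd 0.991, Icam1 0.854, Il34 0.951, Mt3 0.882, Nfkb2 0.876, Nnmt 0.833, Pdgfb 0.945, Rela 0.869, S100a10 0.851, Tnfrsf12a 0.881, Tnni2 0.835 and Vegfd 0.876. It lay below them for Adgre1 0.87, Arg2 0.957, Cldn8 0.865, Hk1 0.97, Kcnj1 0.845, Kdr 0.87, Prox1 0.843, Rgs5 0.938 and Umod 0.839. This is also the library with the fewest reads, and changes of named genes that move by more than 1.5 times without it are given both ways beside the results.

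WT glycerol 2 lay above the other glycerol libraries with shares of Avpr2 0.888, Ctsd 0.835, Hspa1a 0.878, Hspa1b 0.878, Il11 0.844, Krt20 0.829, Maff 0.938, Mmp10 0.902, Nop58 0.838, S100a9 0.891 and Srxn1 0.86. It also held the lowest values of the proximal tubule list.

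In the PBS group the shares were Cyp2a5 0.86, Hpd 0.852 and Sat2 0.829 for WT PBS 1 above the others, Lcn2 0.984, Sele 0.856 and Sprr2f 1.0 for WT PBS 2 above the others, Nop58 0.915 for WT PBS 2 below the others, H2-Eb1 0.864, Nr2f2 0.859, Per1 0.897, Tnf 1.0 and Trib3 0.83 for WT PBS 3 above the others, Gsta1 0.909 for WT PBS 3 below the others, Car3 0.843, Cxcl2 0.899, Fgf21 1.0 and Lrg1 0.872 for WT PBS 4 above the others and Plac8 0.871 for WT PBS 4 below the others. In Fgf21, Sprr2f and Tnf only 1 PBS library held any read, which makes the share 1.0.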

How the results depend on the processing

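Counts of called genes stayed within 1.5 times of 2262 rises and 2404 falls under 9 of 12 changes of pseudocount, filter, scaling, libraries, weights, covariate, trend or block. They moved further in the other 3: without the 3 libraries with a repeated number (4810 and 5218), with array quality weights (5180 and 5722) and with the number series as a covariate (3961 and 4378). With a mean of at least 100, which tests fewer genes, 11 of 95 list counts of 3 or more calls shrank by more than 1.5 times. Leaving out 1 library at a time gave 1689 to 2358 rises and 1757 to 2600 falls. Replicate numbers did not pair the libraries, since the deviations of same-numbered libraries correlated at -0.07 to -0.01. The fit with a replicate block called 1760 rises and 1954 falls. Of the 255 called genes named in the text, 235 kept their call under all 20 alternatives. The direction of citrate synthase (Cs), which was not called, turned to 0.18 with array quality weights, and that of Tlr4 to 0.55 without number series 2 and to 0.63 with the weights. Of these calls 12 were lost on rescaling to the same total, 8 with the replicate block, 5 in the fit of the 8 WT libraries, 3 after quantile normalization and 2 with a pseudocount of 0.5. The array weights stopped before they converged.

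In the WT glycerol group 1 library, WT glycerol 4, had few reads. Leaving out this library alone gave 2358 rises and 2387 falls, close to the 2262 and 2404 with it. The fit of the 8 WT libraries gave 2200 and 2271. Only when every library with a repeated number was left out, in both genotypes, did the counts reach 4810 and 5218. The number of calls thus did not hang on WT glycerol 4 alone, and what limited the precision was not tested. Low genes, such as Tnf, Cxcr2 and Cd3e, rest on few reads in WT glycerol 4, and a value of 0 in it is not shown to be absence.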
